A study of Homo sapiens with 12 samples.

Results

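The genes described here copy the genome and supply its building blocks. They are 48 genes named by symbol: 16 that license origins or build and drive the replicative helicase, 18 polymerase and fork proteins, 6 from nucleotide synthesis, 4 of the E2F and cyclin E switch and 4 that act on newly replicated chromatin. Each gene was represented by its brightest probe that was detected (detection p under 0.05) on at least 3 arrays, and 43 of the 48 had such a probe, among 11205 named genes that did. MCF10A is an immortalized, non-tumorigenic line of human mammary epithelial cells, and the study, by its title, looked for invasive signatures that depend on p130Cas together with ErbB2. p130Cas is an adaptor protein of integrin and growth factor signalling, and ErbB2 is a receptor tyrosine kinase. Total RNA was hybridized to Illumina bead arrays, with 3 arrays each of modified MCF10A cells labelled Cas/ErbB2, ErbB2 and Cas and 3 of the control, labelled Ctr MCF10A.B2. The labels give neither a time, a dose nor how Cas and ErbB2 were raised, and group names below are the labels'. The labels do not state whether a group's arrays are separate cultures, and p-values therefore cover only the spread between arrays, which may be technical.

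Before S phase, the origin recognition complex and the loaders CDC6 and CDT1 place the ring of MCM2 to MCM7 on origins, and CDC45 and the GINS proteins turn it into the active helicase. Polymerases alpha, delta and epsilon then copy the DNA, held by the PCNA clamp, which replication factor C loads, while RPA coats the single strands. Ribonucleotide reductase, thymidylate synthase and thymidine kinase supply the deoxynucleotides. Many of these genes are transcribed under the control of E2F factors, which cyclin E with its kinase helps to release from the retinoblastoma protein, so that their mRNAs are high in dividing cells and low in resting ones.

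Promoter sequence is shown for 5 members whose proteins act together or whose transcripts stood far apart between groups. RefSeq promoter windows (GRCh38.p14, from 250 bases before to 50 after the start of the gene) were found for 41 of the 48 members, and MCM4, MCM5, RPA2, RPA3, POLD3, CCNE2 and GINS4 had no entry. The E2F letters TTTCGCGC and TTTGGCGC were searched on both strands, with overlapping matches each counted, and stood in 15 members. They were in 27.8% of the 54 member windows, against 1.15% of all 35116 windows. The letters CCAAT, on both strands, were in 55.6% of member windows and 34.6% of all windows. Of genes with several windows, the one with the most matches to the marked letters is shown. The other windows of MCM7 and TK1 held no such match. In the 4 helicase windows below the E2F letters are in capitals, and in TK1 the CCAAT letters are, which read ATTGG on this strand. All are written 5′ to 3′ along the gene.
MCM2 (chr3:127598161-127598460, plus strand): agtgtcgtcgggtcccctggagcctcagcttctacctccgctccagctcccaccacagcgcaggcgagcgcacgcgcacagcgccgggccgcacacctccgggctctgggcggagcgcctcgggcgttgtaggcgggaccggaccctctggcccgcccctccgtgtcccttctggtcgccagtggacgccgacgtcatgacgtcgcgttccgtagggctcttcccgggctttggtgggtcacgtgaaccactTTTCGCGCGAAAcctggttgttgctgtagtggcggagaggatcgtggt
MCM3 (chr6:52284693-52284992, minus strand): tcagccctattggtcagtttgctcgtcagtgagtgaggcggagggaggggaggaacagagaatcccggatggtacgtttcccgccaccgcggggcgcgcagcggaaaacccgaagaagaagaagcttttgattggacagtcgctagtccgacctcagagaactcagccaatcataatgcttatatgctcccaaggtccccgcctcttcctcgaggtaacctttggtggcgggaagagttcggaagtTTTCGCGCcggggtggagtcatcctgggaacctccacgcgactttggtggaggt
MCM7 (chr7:100101348-100101647, minus strand): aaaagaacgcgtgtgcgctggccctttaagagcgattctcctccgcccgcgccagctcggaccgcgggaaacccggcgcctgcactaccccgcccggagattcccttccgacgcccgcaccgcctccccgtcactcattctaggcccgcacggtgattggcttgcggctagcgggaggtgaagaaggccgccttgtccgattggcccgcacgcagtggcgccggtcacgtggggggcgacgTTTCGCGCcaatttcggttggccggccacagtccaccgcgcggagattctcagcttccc
MCM6 (chr2:135876394-135876693, minus strand): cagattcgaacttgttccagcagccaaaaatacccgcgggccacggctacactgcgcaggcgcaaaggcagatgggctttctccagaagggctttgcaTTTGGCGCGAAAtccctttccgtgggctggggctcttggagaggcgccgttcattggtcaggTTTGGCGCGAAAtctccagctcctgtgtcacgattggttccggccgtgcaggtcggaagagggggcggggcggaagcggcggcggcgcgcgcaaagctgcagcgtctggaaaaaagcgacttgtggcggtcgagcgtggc
TK1 (chr17:78187003-78187302, minus strand): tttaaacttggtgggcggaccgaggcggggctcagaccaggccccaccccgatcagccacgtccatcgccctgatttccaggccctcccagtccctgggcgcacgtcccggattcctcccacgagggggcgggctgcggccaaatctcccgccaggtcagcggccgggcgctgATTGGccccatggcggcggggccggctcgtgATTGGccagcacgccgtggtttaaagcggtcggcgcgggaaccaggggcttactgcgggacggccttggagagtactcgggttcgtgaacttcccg
In MCM2 the capitals read the same on both strands and hold a pair of overlapping matches. In MCM6, where they do not, each of the separate capital stretches holds a pair of overlapping matches, for 4 in all. The letters were in 5 of the 15 members with a window that were lower in Cas/ErbB2 than in Cas cells, and in 10 of the other 26. These others include CDC6, GINS1 and CHAF1A, which had no probe that could be tested. CDC6 and GINS1 are among those with the letters. MCM6, with the most matches of the windows shown, passed the test in no comparison.

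The signals were background-corrected and quantile-normalized, so that every level below is a log2 signal and every difference is in log2 units. Median raw signals were 547 to 623 on the Cas/ErbB2 arrays, 477 to 577 on the ErbB2 arrays, 510 to 614 on the Cas arrays and 171 to 202 on the control arrays. Probes detected numbered 12864 to 15984 on the 9 arrays of modified cells and 19076 to 19416 on the 3 control arrays. The array names of the controls carry a hybridization mark (III for replicates 1 and 2, II for replicate 3) that the other 9 lack, so hybridization and treatment cannot be told apart in any comparison with control or in the interaction. In the 3 comparisons among modified cells the control arrays enter only through the shared normalization, the probe filter and the estimate of the spread. Cas/ErbB2 replicate 3 stood apart from its group, with 15984 probes detected against 12864 and 13350. The 5 basal mammary epithelial markers on the array (KRT5, KRT14, LAMB3, ITGB4, CDH3) were detected on every array. The ERBB2 probe with signal (ILMN_2352131) read 8.94, 8.91 and 9.42 in Cas/ErbB2, 9.99, 9.75 and 9.95 in ErbB2, 10.34, 10.21 and 9.84 in Cas and 10.40, 10.14 and 10.25 in control cells, lowest where both proteins are named. That of BCAR1, which encodes p130Cas, differed from control in no group (adjusted p 0.124 to 0.379). No source used here tells whether these probes lie in the introduced sequences, so the labels stay unchecked by them.

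In Cas/ErbB2 cells some transcripts of each of 4 function groups were lower than in cells with either ErbB2 or Cas alone: 5 of the 13 helicase and licensing members tested, 2 of 18 at the fork, 3 of the 6 in nucleotide synthesis, and UHRF1. Against ErbB2 cells, 11 of the 43 members tested fell and 0 rose (limma, adjusted p under 0.05), where 2.75% of all 16171 items tested were called, 1.55% as lower and 1.21% as higher. Against Cas cells, 18 fell and 0 rose, where 10.6% of items were called, 5.7% as lower and 4.95% as higher. Over the 11205 named genes alone, 1.96% were lower against ErbB2 and 6.96% against Cas. The members were chosen with earlier results of these data known, so these shares describe the list and do not test it. The members' median difference was −0.34 against ErbB2 and −0.47 against Cas, beside −0.02 over all items in both. The same 11 genes, MCM2, MCM3, MCM4, MCM10, GINS2, PCNA, RFC2, TK1, TYMS, TYMSOS and UHRF1, were lower against ErbB2 and against Cas, as were 1.37% of all items. In 14 of the 43 members all 3 Cas/ErbB2 arrays lay below all other 9, which held for 5.17% of items. Some members were near background on Cas/ErbB2 arrays, and over the 24 members detected on all 12 arrays the counts were 5 lower against ErbB2 and 10 against Cas, with 0 higher, where 1.57% and 7.03% of the items so detected were lower. Because whole cultures were measured, fewer cells in S phase and less of these RNAs per cell cannot be told apart.

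The count against ErbB2 varied with the arrays fitted. It was 1 when only the 6 arrays compared were fitted, and 5 on the 9 arrays without control. It was also 5 without ErbB2 replicate 2 or 3 or Cas/ErbB2 replicate 2, 6 without Cas/ErbB2 replicate 1, 7 without ErbB2 replicate 1 or control replicate 3, and 15 without Cas/ErbB2 replicate 3. The count against Cas was 10 with the 6 arrays compared alone and 14 to 21 with any 1 array left out. The shares of all items called in these fits are not set beside these counts. The counts therefore do not tell whether the members changed more than other items.

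**Figure D1:**
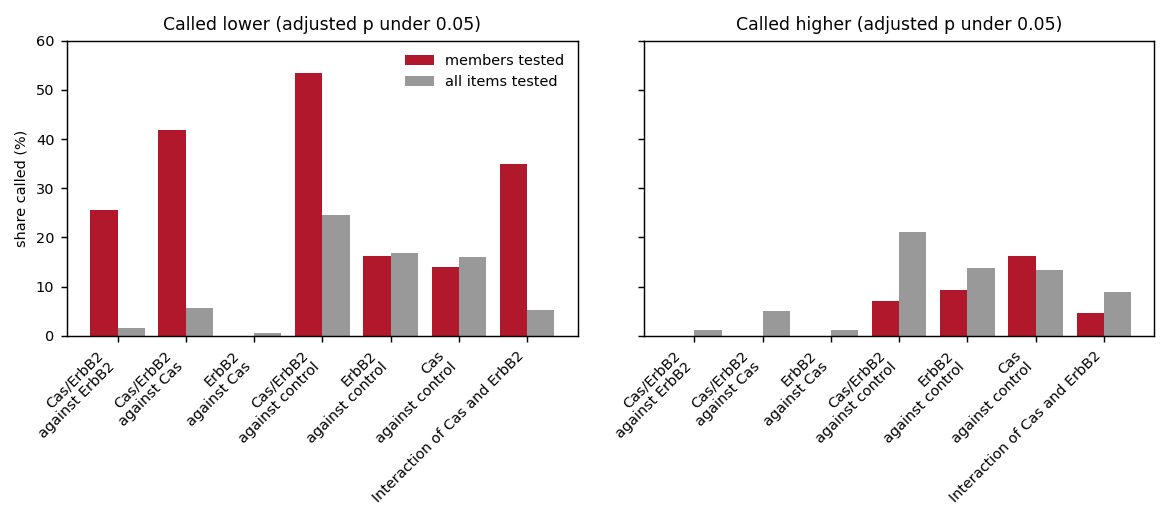
Bars show the share (in %) of the 43 members tested (red) and of all 16171 items tested (grey) that were called lower (left) or higher (right) at adjusted p under 0.05 in each of the 7 comparisons. Of members, 11 were lower in Cas/ErbB2 against ErbB2 and 18 against Cas, and none was higher in either, while no member was called for ErbB2 against Cas.

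Among the helicase genes, MCM2, a subunit of the hexameric ring, went below detection in Cas/ErbB2 cells. Its log2 signal was 7.13, 6.97 and 7.47 in Cas/ErbB2 cells, none detected, against 8.67, 8.98 and 8.91 in ErbB2, 9.38, 9.35 and 8.60 in Cas and 9.26, 9.07 and 9.33 in control cells. The Cas/ErbB2 arrays did not overlap any other group. MCM2 was at least 1.93-fold lower than in ErbB2 cells (adjusted p = 0.00189) and at least 2.3-fold lower than in Cas cells (adjusted p = 8.14e-05), the bound being set by the lowest signals detected on each array. MCM2 passed the test against ErbB2 under every alternative tried, the only member to do so.

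MCM3 and MCM4, further subunits of the ring, were detected on all 12 arrays and moved by less. MCM3 read 11.90, 11.95 and 11.93 in Cas/ErbB2, 12.37, 12.46 and 12.39 in ErbB2, 12.71, 12.71 and 12.68 in Cas and 12.48, 12.41 and 12.46 in control cells. MCM4 read 10.34, 10.16 and 10.19 in Cas/ErbB2, 10.74, 10.95 and 11.04 in ErbB2, 11.38, 11.32 and 11 in Cas and 11.19, 11.11 and 11.21 in control cells. For both genes the Cas/ErbB2 arrays were the lowest and lay close together. MCM3 fell by 0.48 ± 0.10 (SE) against ErbB2 (adjusted p = 0.0296, lost in 13 of 27 alternatives, among them 7 left-out arrays) and by 0.77 ± 0.10 against Cas (adjusted p = 0.000387). MCM4 fell by 0.68 ± 0.14 against ErbB2 (adjusted p = 0.0217, lost in 7 of 27 alternatives, among them 3 left-out arrays) and by 1.01 ± 0.14 against Cas (adjusted p = 0.000432). The second kept probe of each had a difference of the same sign, −0.46 for MCM3 (adjusted p = 0.144) and −0.56 for MCM4 (adjusted p = 0.0852) against ErbB2.

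The other ring subunits differed by less. MCM7 averaged 11.44 ± 0.14 in Cas/ErbB2, 11.85 ± 0.01 in ErbB2, 12.06 ± 0.13 in Cas and 11.84 ± 0.09 in control cells (SD, n = 3 each), and its difference passed against Cas (−0.62 ± 0.12 SE, limma adjusted p = 0.00603) but not against ErbB2 (−0.41, adjusted p = 0.106). MCM5 averaged 9.67 ± 0.08 in Cas/ErbB2, 9.99 ± 0.09 in ErbB2, 10.36 ± 0.08 in Cas and 9.75 ± 0.20 in control cells, and fell by 0.69 ± 0.13 against Cas (limma adjusted p = 0.00423). It was close to control in Cas/ErbB2 cells and highest in Cas cells. MCM6 averaged 11.04 ± 0.13 in Cas/ErbB2, 11.27 ± 0.14 in ErbB2, 11.30 ± 0.05 in Cas and 10.98 ± 0.10 in control cells, and its differences of −0.24 against ErbB2 (limma adjusted p = 0.365) and −0.26 against Cas (adjusted p = 0.222) did not pass.

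MCM10, which helps to activate the loaded helicase, was the member called in the most comparisons. It read 7.82, 7.19 and 7.84 in Cas/ErbB2, 8.89, 9.11 and 8.92 in ErbB2, 8.92, 9 and 9.12 in Cas and 8.52, 8.24 and 8.23 in control cells. No Cas/ErbB2 array reached any array of another group, only the third was detected, and the ErbB2 and Cas arrays were all above the control arrays. With each undetected array set to the lowest signal detected on it, it was at least 2.02-fold lower than in ErbB2 (adjusted p = 0.00217) and at least 2.08-fold lower than in Cas cells (adjusted p = 0.000267). The same setting gives the folds below for genes detected on only some arrays of the lower group, since fitted differences there are taken partly against background.

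GINS2, a subunit of the GINS complex, and CDC45 showed the split among the Cas/ErbB2 arrays most openly. GINS2 read 7.16, 7.23 and 8.98 in Cas/ErbB2, 9.69, 9.64 and 9.61 in ErbB2, 9.68, 9.69 and 9.39 in Cas and 9.82, 9.53 and 9.53 in control cells. CDC45 read 6.98, 6.92 and 8.46 in Cas/ErbB2, 8.27, 8.78 and 8.87 in ErbB2, 9.26, 8.94 and 8.96 in Cas and 9.37, 9.07 and 9.20 in control cells. On both probes Cas/ErbB2 replicates 1 and 2 were not detected and replicate 3 was, at a level below every other array for GINS2 and within the ErbB2 range for CDC45. GINS2 fell by 1.86 ± 0.37 (SE) against ErbB2 (adjusted p = 0.021), a call lost when any 1 ErbB2 array or Cas/ErbB2 replicate 1 or 2 was left out, and by 1.80 ± 0.37 against Cas (adjusted p = 0.00715), at least 2.48-fold and 2.37-fold. CDC45 fell by 1.60 ± 0.33 against Cas (adjusted p = 0.00816), at least 1.85-fold, while its difference of −1.19 from ErbB2 did not pass (adjusted p = 0.0873). Without Cas/ErbB2 replicate 3 the fitted differences from Cas, then against undetected signals, were −2.39 for GINS2 and −2.11 for CDC45. The part of array detection in this split was not tested.

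**Figure D2:**
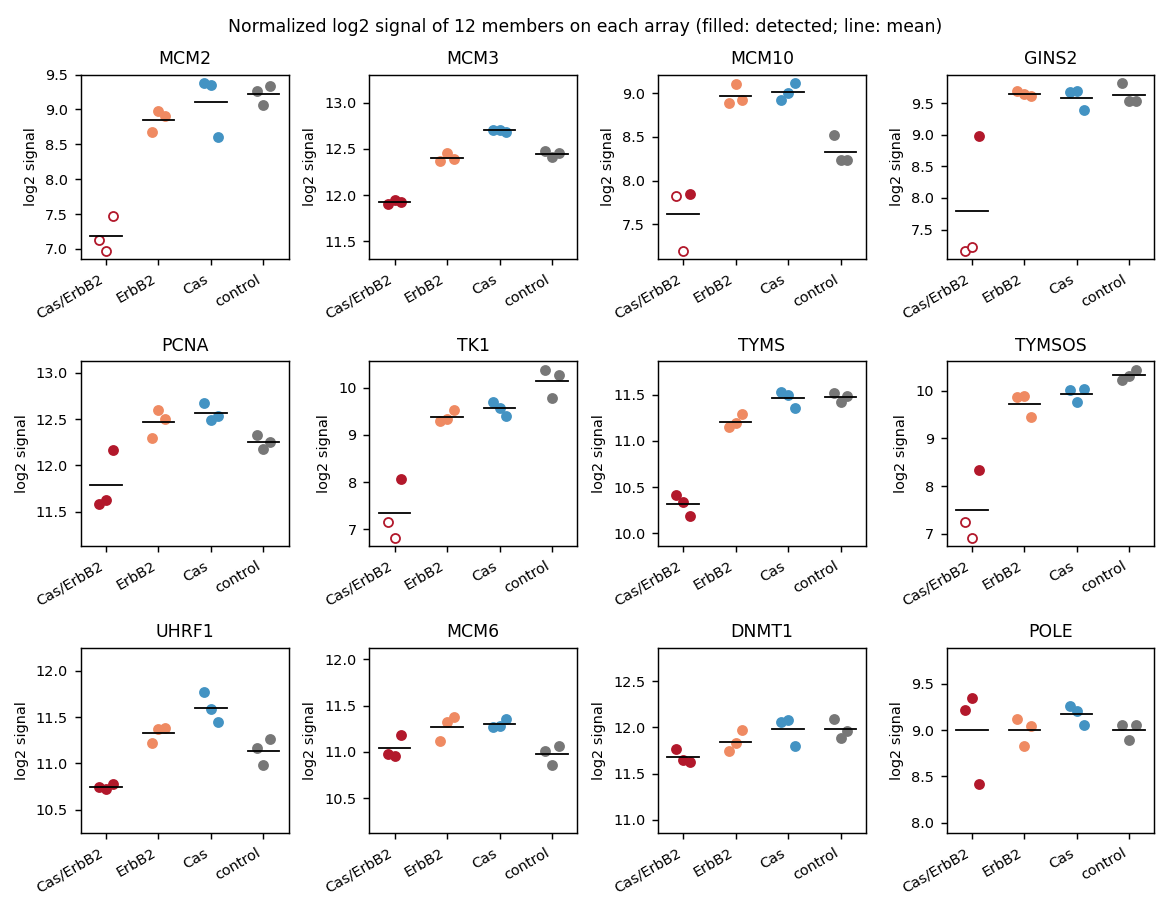
Points give the normalized log2 signal on each array (filled where detected, open where not) and lines the group means for 12 members, each panel with its own axis. The 3 Cas/ErbB2 points lie below all others for MCM2, MCM3, MCM10, GINS2, PCNA, TK1, TYMS, TYMSOS and UHRF1, whereas those of MCM6, DNMT1 and POLE do not all do so.

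At the fork, 2 of the 18 members fell against ErbB2 and 5 against Cas. PCNA, the sliding clamp, read 11.58, 11.63 and 12.17 in Cas/ErbB2, 12.30, 12.60 and 12.50 in ErbB2, 12.67, 12.49 and 12.53 in Cas and 12.33, 12.18 and 12.25 in control cells. All Cas/ErbB2 arrays were lowest, the third only by a small margin. PCNA fell by 0.77 ± 0.16 (SE) against Cas (adjusted p = 0.00862) and by 0.67 ± 0.16 against ErbB2, where the adjusted p of 0.048 moved past the threshold when any 1 array other than Cas/ErbB2 replicate 3 was left out.

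RFC2 and RFC5 are small subunits of the clamp loader. RFC2 read 7.50, 7.52 and 8.13 in Cas/ErbB2, 8.36, 8.76 and 9.02 in ErbB2, 8.41, 8.89 and 8.37 in Cas and 8.50, 8.31 and 8.64 in control cells. RFC5 read 8.84, 8.60 and 9.39 in Cas/ErbB2, 9.32, 9.86 and 9.94 in ErbB2, 10.03, 9.75 and 9.66 in Cas and 10.22, 10.06 and 10.21 in control cells. RFC2 did not overlap between Cas/ErbB2, where only replicate 3 was detected, and the rest, and RFC5 overlapped with ErbB2 alone. RFC2 fell by 1.00 ± 0.22 (SE) against ErbB2 (adjusted p = 0.0334) and by 0.84 ± 0.22 against Cas (adjusted p = 0.0285), at least 1.58-fold and 1.41-fold. RFC5 fell by 0.87 ± 0.21 against Cas (adjusted p = 0.0208), and its difference of −0.76 from ErbB2 did not pass (adjusted p = 0.0873). The other small subunits tested, RFC3 (0.10, adjusted p = 0.877) and RFC4 (−0.10, adjusted p = 0.775), did not pass against ErbB2. Each of these RFC2 and RFC5 calls against ErbB2 or Cas was lost when 1 of several arrays was left out, and with the mean of the kept probes in place of the brightest.

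FEN1, the flap nuclease that trims Okazaki fragments, averaged 10.33 ± 0.16 in Cas/ErbB2, 10.95 ± 0.07 in ErbB2, 10.98 ± 0.32 in Cas and 10.65 ± 0.18 in control cells (SD, n = 3 each). It fell by 0.65 ± 0.17 (SE) against Cas (limma adjusted p = 0.0272, lost without Cas replicate 1 or 2 or Cas/ErbB2 replicate 2 or 3), and its difference of −0.62 from ErbB2 did not pass (adjusted p = 0.0776). The call against Cas was also lost with the mean of the kept probes. A second FEN1 probe (ILMN_1755834), detected on all 12 arrays, did not pass against Cas (−0.46, adjusted p = 0.342). On that probe Cas cells were higher than control (0.84, adjusted p = 0.0326). RPA2, of the single-strand binding complex, fell by 0.45 ± 0.13 against Cas (adjusted p = 0.0434), a call that every left-out Cas or Cas/ErbB2 array removed. The polymerase and primase subunits gave no call against ErbB2 or Cas on the brightest probe, among them POLA2, POLD2, POLE and PRIM1. A second PRIM1 probe (ILMN_1694502), nearly as bright and detected on all 12 arrays, fell against Cas (−0.56, adjusted p = 0.037) and against control (−0.40, adjusted p = 0.049), where the brightest differed by −0.45 and −0.43. The catalytic subunit POLE averaged 9 in Cas/ErbB2, 9 in ErbB2, 9.17 in Cas and 9 in control cells, with SDs of 0.50, 0.15, 0.11 and 0.10.

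In nucleotide synthesis, 3 of the 6 members, all of thymidylate supply or its locus, fell against both ErbB2 and Cas. TK1, the cytosolic thymidine kinase of the salvage route, read 7.15, 6.82 and 8.06 in Cas/ErbB2, 9.29, 9.34 and 9.52 in ErbB2, 9.70, 9.58 and 9.41 in Cas and 10.38, 9.78 and 10.27 in control cells. The Cas/ErbB2 arrays were far below the rest, with the third the highest of them and the only one detected. TK1 was at least 2.55-fold lower than in ErbB2 (fitted difference −2.04 ± 0.27 SE, adjusted p = 0.00217) and at least 2.89-fold lower than in Cas cells (−2.22 ± 0.27, adjusted p = 0.000188). Without Cas/ErbB2 replicate 3 the fitted difference, then wholly against undetected signals, was −2.40 against ErbB2 and −2.58 against Cas.

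TYMS, thymidylate synthase of the de novo route, was bright on all arrays and tight within groups. It read 10.41, 10.34 and 10.19 in Cas/ErbB2, 11.15, 11.19 and 11.29 in ErbB2, 11.53, 11.50 and 11.36 in Cas and 11.52, 11.42 and 11.49 in control cells. Here Cas/ErbB2 replicate 3 was the lowest of its group rather than the highest, and the Cas/ErbB2 arrays did not overlap any other group. TYMS fell by 0.90 ± 0.12 (SE) against ErbB2 (adjusted p = 0.00201) and by 1.15 ± 0.12 against Cas (adjusted p = 4.28e-05).

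TYMSOS, the antisense transcript of the TYMS locus, has a probe of its own. It read 7.24, 6.91 and 8.34 in Cas/ErbB2, 9.87, 9.88 and 9.44 in ErbB2, 10.02, 9.76 and 10.03 in Cas and 10.23, 10.30 and 10.44 in control cells. Again only Cas/ErbB2 replicate 3 was detected in its group, and it lay below every other array. TYMSOS was at least 3.04-fold lower than in ErbB2 (fitted difference −2.23 ± 0.29 SE, adjusted p = 0.00201) and at least 3.51-fold lower than in Cas cells (−2.44 ± 0.29, adjusted p = 0.000159). The calls of TK1, TYMS, TYMSOS and MCM10 against ErbB2 held with any 1 array left out, and were lost when only the 6 arrays compared were fitted (adjusted p 0.0539 to 0.0708).

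Ribonucleotide reductase did not pass against ErbB2 or Cas. RRM1, its large subunit, averaged 12.73 ± 0.12 in Cas/ErbB2, 12.95 ± 0.13 in ErbB2, 12.98 ± 0.08 in Cas and 13.16 ± 0.07 in control cells (SD, n = 3 each). RRM2, the small subunit made in S phase, read 6.64, 6.72 and 8.11 in Cas/ErbB2, 7.25, 7.85 and 7.54 in ErbB2, 7.57, 7.57 and 7.60 in Cas and 8.33, 8.59 and 8.72 in control cells. Of these only the control arrays, ErbB2 replicate 2 and Cas/ErbB2 replicate 3 were detected.

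Of the switch genes, E2F2, an activating E2F factor, was detected on no Cas/ErbB2 array. It read 7.60, 7.36 and 7.53 in Cas/ErbB2, 8.53, 7.89 and 7.71 in ErbB2, 8.58, 8.35 and 8.32 in Cas and 8.37, 8.24 and 8.34 in control cells. The Cas/ErbB2 arrays were the lowest, close to ErbB2 replicate 3. E2F2 was at least 1.42-fold lower than in Cas cells (adjusted p = 0.00745), and its difference of −0.54 from ErbB2 did not pass (adjusted p = 0.159). E2F1 averaged 8.15 ± 0.23 in Cas/ErbB2, 8.25 ± 0.41 in ErbB2, 8.35 ± 0.15 in Cas and 8.08 ± 0.21 in control cells and passed in no comparison.

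Of the genes of replicated chromatin, UHRF1 binds hemimethylated DNA and guides the maintenance methyltransferase DNMT1. It read 10.75, 10.72 and 10.78 in Cas/ErbB2, 11.22, 11.37 and 11.38 in ErbB2, 11.77, 11.59 and 11.45 in Cas and 11.17, 10.98 and 11.26 in control cells. The 3 Cas/ErbB2 values lay within a narrow band below all others. UHRF1 fell by 0.57 ± 0.13 (SE) against ErbB2 (adjusted p = 0.0356, lost in 8 of the left-out arrays) and by 0.85 ± 0.13 against Cas (adjusted p = 0.000911). DNMT1 averaged 11.68 ± 0.08 in Cas/ErbB2, 11.85 ± 0.12 in ErbB2, 11.98 ± 0.16 in Cas and 11.98 ± 0.11 in control cells and passed in no comparison.

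On the probe that stands for the gene, 12 tested members passed in none of the 7 comparisons: MCM6, ORC1, ORC6, POLA2, POLD2, POLE, PRIM1, RFC4, RPA3, LIG1, E2F1 and DNMT1. ORC1 and ORC6 belong to the origin recognition complex, RFC4 to the clamp loader, RPA3 to the single-strand binding complex, and LIG1 seals nicks between Okazaki fragments. Of these, PRIM1 passed on the second probe described above, and ORC6 on ILMN_1731070, detected on all 12 arrays, which was higher than control in Cas/ErbB2 (0.44, adjusted p = 0.0479) and ErbB2 cells (0.64, adjusted p = 0.0117). The ORC6 probe that stands for the gene averaged 15.15, against 8.93 for that one. RPA3 still had all 3 Cas/ErbB2 arrays (12.46 to 12.65) below the other 9 (12.69 to 13.17). The 5 members without a kept probe were CDC6, GINS1, GINS4, CCNE2 and CHAF1A, each detected on at most 1 array.

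**Figure D3:**
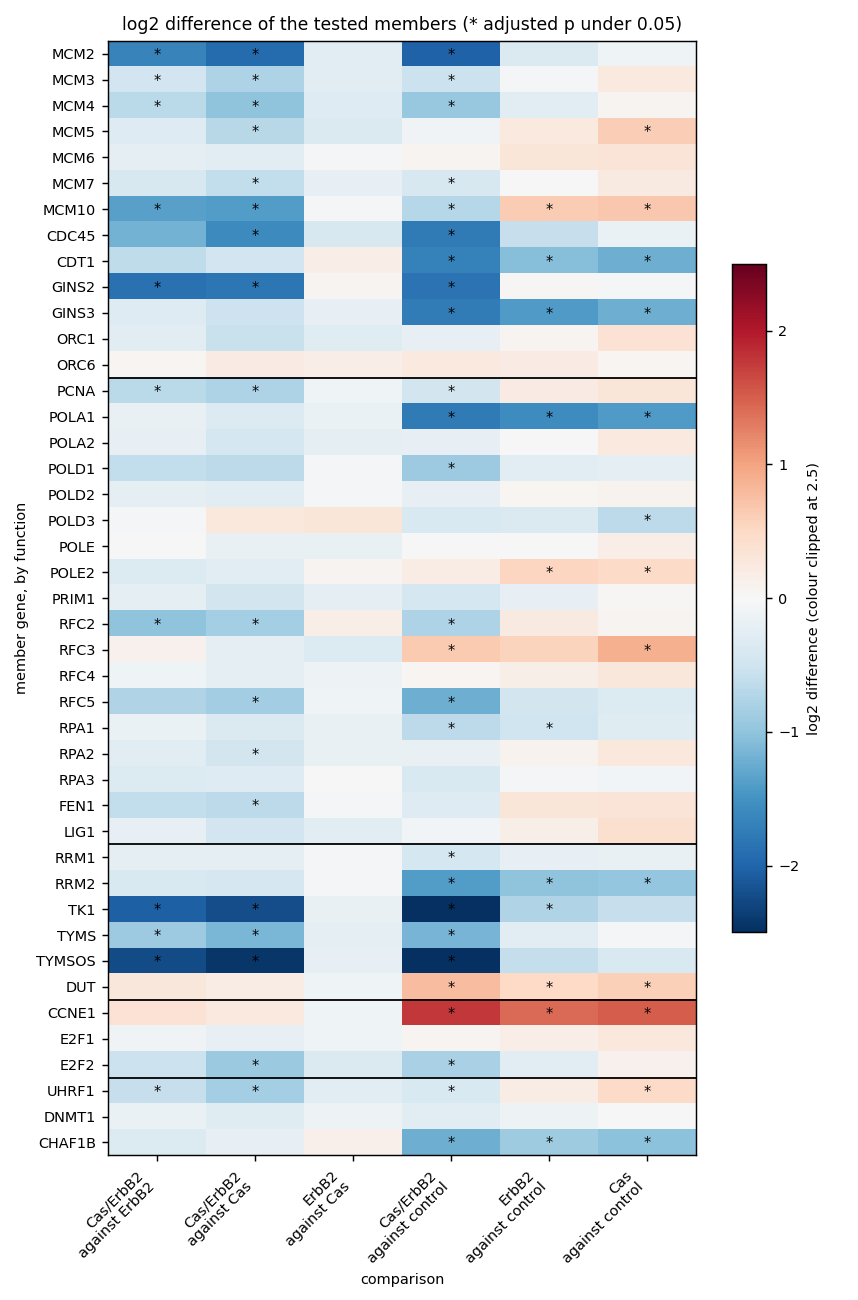
Colour gives the log2 difference of each of the 43 tested members (rows, grouped by function) in 6 comparisons (columns), and stars mark adjusted p under 0.05. The 2 left columns, Cas/ErbB2 against ErbB2 and against Cas, hold 11 and 18 stars, all on the blue (lower) side, and the column for ErbB2 against Cas holds none.

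Against control, Cas/ErbB2 cells had 23 members lower and 3 higher, where 45.5% of all items were called, 24.5% as lower and 21% as higher (29.4% of named genes were lower). The members' median difference was −0.43 (0.00 over all items). Among the 37 members that did not need the control arrays to pass the filter, 18 were lower and 3 higher. Of all items so filtered, 18.1% were lower and 25.1% higher. TYMSOS was at least 4.59-fold lower (adjusted p = 1.05e-05), TK1 at least 4.33-fold (adjusted p = 6.6e-06), MCM2 at least 2.48-fold (adjusted p = 1.13e-05), and MCM10 at least 1.29-fold (adjusted p = 0.00605). TYMS fell by 1.17 ± 0.12 (SE, adjusted p = 8.45e-06) and MCM4 by 0.94 ± 0.14 (adjusted p = 0.000169). POLD1, the catalytic subunit of polymerase delta, detected on 2 of the Cas/ErbB2 arrays, was at least 1.76-fold lower (adjusted p = 0.00648), and RPA1, the large subunit of RPA, by 0.65 ± 0.13 (adjusted p = 0.00142). The 11 genes lower against both ErbB2 and Cas were all lower against control as well, in a comparison that shares the Cas/ErbB2 arrays with the others.

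In cells with ErbB2 or Cas alone the members were called about as often as all items, and in both directions. Against control, ErbB2 cells had 4 members higher and 7 lower, where 30.6% of items were called (13.8% higher, 16.8% lower). Cas cells had 7 members higher and 6 lower, where 29.3% were called (13.3% higher, 16% lower). The Cas split was 10 higher and 5 lower under median scaling. Of named genes alone, 20.1% were lower in ErbB2 and 19.2% in Cas cells. The members' medians were 0.00 and 0.07. MCM10 rose in both, by 0.64 ± 0.18 (SE) in ErbB2 (adjusted p = 0.0162) and by 0.68 ± 0.18 in Cas cells (adjusted p = 0.0124). POLE2, a subunit of polymerase epsilon, rose by 0.54 ± 0.16 in ErbB2 (adjusted p = 0.021) and by 0.48 ± 0.16 in Cas cells (adjusted p = 0.036), with values of 8.89, 8.51 and 8.35 in ErbB2 and 8.64, 8.32 and 8.62 in Cas cells above 8.05, 8 and 8.08 in control cells. The POLE2 calls were lost in 7 and 10 of 26 alternatives, among them 3 and 5 left-out arrays, no background correction and the authors' processed intensities. The MCM10 rise in ErbB2 cells was lost without ErbB2 replicate 2 or control replicate 2 or 3, and the UHRF1 rise below without Cas replicate 1 or control replicate 2. MCM5 rose by 0.61 ± 0.13 (adjusted p = 0.00422) and UHRF1 by 0.47 ± 0.13 (adjusted p = 0.0169) in Cas cells. RPA1 fell by 0.49 ± 0.13 in ErbB2 cells (adjusted p = 0.0121, lost without ErbB2 replicate 2). The rises of MCM10, POLE2, MCM5 and UHRF1 turned into falls when arrays were scaled on the median of all probes, most of which were undetected, a scaling that moved the median of all items by −1.61 in Cas/ErbB2, −1.45 in ErbB2 and −1.66 in Cas cells.

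Most of the lower calls in ErbB2 or Cas cells came from members that passed the filter only through the control arrays, and which therefore had to be lower elsewhere. These were CDT1, GINS3, POLA1, POLD3, RRM2 and CHAF1B. POLA1, the catalytic subunit of polymerase alpha, read 6.70, 6.70 and 7.10 in Cas/ErbB2, 6.83, 7.21 and 7.02 in ErbB2, 7.23, 7.25 and 7.05 in Cas and 8.57, 8.62 and 8.62 in control cells. GINS3, the partner of GINS2 in the GINS complex, read 6.62, 6.52 and 7.10 in Cas/ErbB2, 6.88, 7.23 and 7.08 in ErbB2, 7.43, 7.24 and 7.10 in Cas and 8.66, 8.31 and 8.49 in control cells. CHAF1B, of the histone chaperone CAF-1, read 6.67, 6.53 and 7.50 in Cas/ErbB2, 7.14, 7.36 and 7.22 in ErbB2, 7.03, 7.05 and 7.22 in Cas and 8.19, 7.95 and 8.23 in control cells. All 3 genes were detected on the control arrays alone. POLA1 was at least 1.62-fold lower in Cas/ErbB2, 1.7-fold in ErbB2 and 1.69-fold in Cas cells than in control. The filter had fixed that direction in advance.

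Some probes that were not kept gave a similar gap. CDC6, GINS4 and CHAF1A, with no kept probe, averaged 6.20 to 6.26 in Cas/ErbB2, 6.25 to 6.35 in ErbB2 and 6.23 to 6.46 in Cas cells, against 7.20 to 7.38 in control cells. The other members with no kept probe did not show it. CCNE2 averaged 6.28 in Cas/ErbB2, 6.20 in ErbB2, 6.23 in Cas and 6.25 in control cells. GINS1 averaged 7.43, 7.62, 7.63 and 7.33 in the same order, lowest in control cells. The gap was not particular to members. KDR, an endothelial marker undetected on all arrays, averaged 6.29, 6.25, 6.31 and 7.25 in that order. CDH5 and VWF, endothelial markers likewise undetected, did not show it. With the 6 members that passed the filter only through the control arrays left out, 37 remained. Of these, 3 were higher and 18 lower than control in Cas/ErbB2 cells, where 25.1% and 18.1% of the 13201 items so filtered were. In ErbB2 cells 4 were higher and 2 lower (RPA1 and TK1), where 16.7% and 9.45% of items were, and in Cas cells 7 were higher and 0 lower, where 16.1% and 7.78% were. This filter rests on the arrays of modified cells and so favours rises against control. It removed all 6 members called lower in Cas cells. CCNE1, detected on 1 control array, stayed among those called higher in each group. The counts for Cas/ErbB2 against ErbB2 and against Cas stayed at 11 and 18, since none of the 6 was called there.

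Between ErbB2 and Cas cells, 0 of 43 members passed the limma test, where 1.56% of all items were called, 1.09% as higher and 0.464% as lower. At an unadjusted p under 0.05 there were 5 members, and 1780 items (11%). The lowest adjusted p of a member was 0.259, for MCM5, which read 9.95, 9.91 and 10.09 in ErbB2 and 10.41, 10.40 and 10.26 in Cas cells. The members' differences ran from −0.41 to 0.30, with a median of −0.13 (0.00 over all items).

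The interaction compares the effect of ErbB2 in cells with Cas, (Cas/ErbB2 minus Cas), with its effect in cells without it, (ErbB2 minus control). Of the 43 members 15 had a negative interaction and 2 a positive one, where 14.2% of all items passed, 5.21% as negative and 8.95% as positive. MCM10 had the largest, −2.04 ± 0.25 (SE, adjusted p = 0.000368), since it was higher than control with either protein and lower with both. TYMSOS (−1.85, adjusted p = 0.00913), MCM2 (−1.56, adjusted p = 0.00381), UHRF1 (−1.03, adjusted p = 0.0023), PCNA (−0.98, adjusted p = 0.0128), MCM5 (−0.93, adjusted p = 0.0049), TYMS (−0.88, adjusted p = 0.00329) and MCM3 (−0.73, adjusted p = 0.00549) also kept their calls with any 1 array left out. The count was 10 without control replicate 2 and 11 without Cas replicate 1. The positive values, GINS3 (0.91) and POLA1 (1.24), belong to probes undetected in 3 of the 4 groups. Because the control arrays enter the interaction, hybridization and interaction cannot be told apart.

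CCNE1, DUT, RFC3 and PCNA had kept probes called in opposite directions. CCNE1 encodes cyclin E1. Its brightest probe (ILMN_1733419) read 9.26, 9.38 and 8.32 in Cas/ErbB2, 8.73, 8.48 and 8.68 in ErbB2, 9.15, 8.41 and 8.66 in Cas and 7.55, 7.23 and 6.88 in control cells. Of the control arrays only the first was detected, so that CCNE1 was at least 2.8-fold higher in Cas/ErbB2 (adjusted p = 0.000327), 2.18-fold in ErbB2 (adjusted p = 0.00253) and 2.36-fold in Cas cells (adjusted p = 0.00165). This probe needed the arrays of modified cells to pass the filter. Each of its calls was lost with the mean of the kept probes (limma adjusted p 0.242 to 0.355). The other kept probe (ILMN_2374425) was detected on the 3 control arrays only. It passed the filter through them and had to be lower elsewhere, so it is not set against the first.

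DUT, the dUTPase that keeps uracil out of DNA, rose against control in all groups on its brightest probe (ILMN_1721008), which read 10.88, 10.73 and 10.92 in Cas/ErbB2, 10.74, 10.70 and 10.25 in ErbB2, 10.78, 10.68 and 10.53 in Cas and 10.11, 10.01 and 10.08 in control cells. The rise was 0.78 ± 0.15 (SE, adjusted p = 0.00116) in Cas/ErbB2, 0.50 ± 0.15 (adjusted p = 0.0218, lost in 4 left-out arrays) in ErbB2 and 0.60 ± 0.15 (adjusted p = 0.00964) in Cas cells. Its other probes fell in Cas/ErbB2 cells, ILMN_2374778 by 1.58 ± 0.31 (adjusted p = 0.00146) and ILMN_1732688 by 1.03 ± 0.31 (adjusted p = 0.0185), with Cas/ErbB2 replicate 3 at 9.81 on the second of these against 8.22 and 8.35. On the first of these only 1 Cas/ErbB2 array was detected. The platform annotation gives ILMN_1721008 and ILMN_1732688, whose differences had opposite signs, the same RefSeq transcript, and ILMN_2374778 another.

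RFC3, another clamp loader subunit, was higher in Cas (0.89 ± 0.22 SE, adjusted p = 0.0102) and Cas/ErbB2 cells (0.65 ± 0.22, adjusted p = 0.0305) on ILMN_1784860, with 8.18, 9.12 and 9.09 in Cas/ErbB2, 8.64, 8.92 and 8.54 in ErbB2, 9.02, 9.18 and 8.90 in Cas and 8.17, 8.06 and 8.21 in control cells. Cas/ErbB2 replicate 1 overlapped the control arrays. The Cas/ErbB2 call was lost without Cas/ErbB2 replicate 2 or 3 or any control array. ILMN_1658143, called lower, was detected on 4 arrays, 3 of them control, and likewise passed the filter through the control arrays. For PCNA, the brightest probe fell by 0.46 ± 0.16 in Cas/ErbB2 against control (adjusted p = 0.0355, lost in 5 left-out arrays), and ILMN_1706958 rose by 0.55 ± 0.19 (adjusted p = 0.0324). On that second probe the differences of Cas/ErbB2 from ErbB2 (−0.20, adjusted p = 0.65) and from Cas (−0.28, adjusted p = 0.428) did not pass, so those PCNA calls rest on 1 probe, while its interaction passed (−1.03, adjusted p = 0.0207). By contrast, the 3 kept probes of RPA1 all fell in Cas/ErbB2 cells against control, by 0.65, 0.96 and 0.62 (adjusted p 0.000257 to 0.0018).

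**Figure D4:**
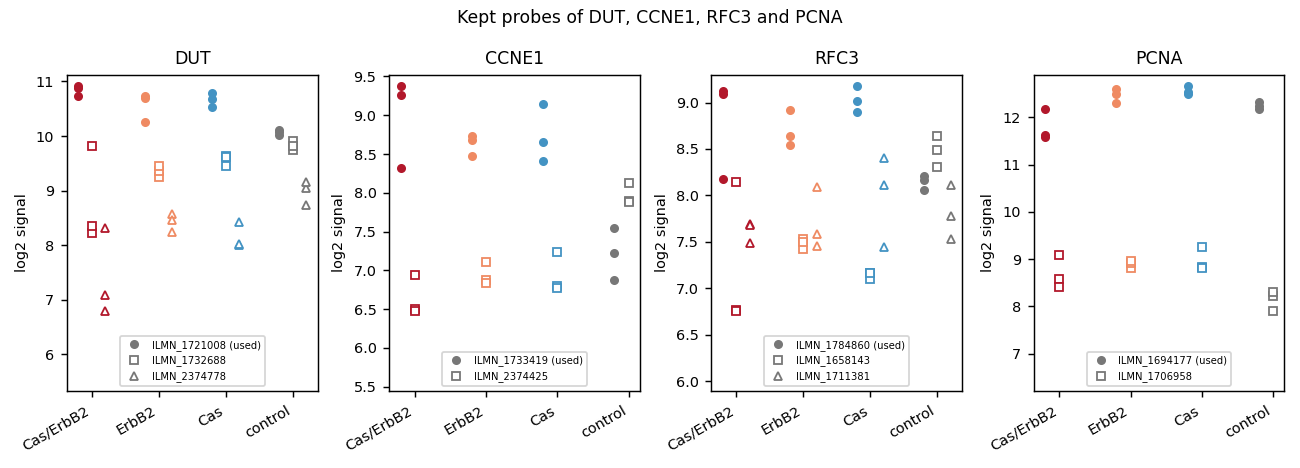
Points give the log2 signal on each array for the kept probes of DUT, CCNE1, RFC3 and PCNA, filled for the brightest probe, which stands for the gene, and open for the others. In Cas/ErbB2 cells the filled DUT points average above those in control cells, while the open ones average below, and the open CCNE1 points were detected in control cells alone.

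Genes of replication and nucleotide supply outside the 48 were also counted. Of 26 other replication genes tested, 0 passed against ErbB2, against Cas 2 fell and 2 rose, and against control 10 fell and 4 rose in Cas/ErbB2 cells. Of all items, 2.75% passed against ErbB2, and 24.5% were lower and 21% higher against control. Against Cas, 7.69% of these genes fell and 7.69% rose, near the 5.7% and 4.95% of all items. The difference from the members' counts was not tested. TIMELESS, of the fork protection complex, fell by 1.69 ± 0.30 (SE, adjusted p = 0.00312) against Cas, and GMNN, the inhibitor of CDT1, by 0.79 ± 0.21 (adjusted p = 0.0328). TOP1, the DNA topoisomerase, rose by 0.97 ± 0.21 (adjusted p = 0.0112) and RFC1, the large clamp loader subunit, by 0.65 ± 0.12 (adjusted p = 0.00347). Of 15 other nucleotide synthesis genes, DCTPP1, a nucleotide pyrophosphatase, fell by 0.66 ± 0.13 against ErbB2 (adjusted p = 0.0244) and by 0.75 ± 0.13 against Cas (adjusted p = 0.00311), and SHMT1, which makes one-carbon units, by 1.79 ± 0.40 against Cas (adjusted p = 0.0116). Of 15 other G1/S control genes, CDK2, the kinase partner of cyclin E, fell by 0.88 ± 0.20 against ErbB2 (adjusted p = 0.0426). Against Cas, CCND1, cyclin D1, rose by 0.59 ± 0.15 (adjusted p = 0.029), while CCNA2, cyclin A2 (0.49 ± 0.12, adjusted p = 0.0197), and SKP2, a ubiquitin ligase subunit (0.45 ± 0.13, adjusted p = 0.0392), were lower in Cas/ErbB2 cells. None of the 5 tested CDK inhibitor genes passed against ErbB2 or Cas.

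Mitosis genes were lower alongside. Of 26 tested, 5 fell against ErbB2, 11 against Cas and 20 against control in Cas/ErbB2 cells, and none rose, with medians of −0.51, −0.51 and −1.06. Over all items, 1.55%, 5.7% and 24.5% were lower in the same order. AURKB, a kinase of chromosome segregation, averaged 8.37 ± 0.22 in Cas/ErbB2, 9.68 ± 0.21 in ErbB2, 9.28 ± 0.27 in Cas and 10.02 ± 0.18 in control cells (SD, n = 3 each). It fell by 1.31 ± 0.18 (SE) against ErbB2 (limma adjusted p = 0.00286) and by 0.90 ± 0.18 against Cas (adjusted p = 0.00568). In ErbB2 and in Cas cells 10 mitosis genes were lower than in control and none was higher, where 16.8% and 16% of all items were lower. The difference between the lists was not tested.

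Markers of other cell types also differed. The summed linear signal of the leukocyte list was 6710 to 9150 in Cas/ErbB2, 4540 to 4980 in ErbB2, 3610 to 4740 in Cas and 3290 to 4130 in control cells. Of the 5 on the array CD68 and CD14 were detected, while PTPRC, CD3E and LYZ were undetected on all arrays. The fibroblast list summed to 1240 to 1480 in Cas/ErbB2, 1440 to 2080 in ErbB2, 2110 to 2410 in Cas and 3010 to 3830 in control cells, with COL3A1 and PDGFRB undetected on all arrays. Of the endothelial list (summed signal 516 to 554, 523 to 551, 472 to 547 and 481 to 514 in the same order) CDH5, VWF and KDR were undetected on all arrays. PECAM1, its other marker, was detected on all 12 and was higher than control in Cas/ErbB2 (0.56, adjusted p = 0.00441), ErbB2 (0.62, adjusted p = 0.0037) and Cas cells (0.43, adjusted p = 0.0287). The adipocyte list summed to 661 to 835 in Cas/ErbB2, 801 to 1250 in ErbB2, 523 to 1130 in Cas and 606 to 901 in control cells, with LEP detected on 11 arrays, ADIPOQ on 3 and PLIN1 on none. The part of these markers in the members' differences was not tested.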

How the data were processed

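The authors deposited non-normalized bead signal intensities and detection p-values of 47224 probes on 12 arrays, per the file headers, and a second table of processed intensities whose column medians are all 439.6 and whose ranks equal those of the first. The normalization and centring of that table, and the software behind both, are not stated in the sources used here. The labels name the Illumina Ref-8v2 design, but the 47224 probes match the annotation of a larger platform. Which chip was used is not settled here. Here the intensities were background-corrected with neqc of limma 3.58.1 (R 4.3.3), with negative controls inferred from the detection p-values and an offset of 16, quantile-normalized and taken to log2. Probes detected on at least 3 arrays were kept (19777), gene symbols came from the platform annotation updated by gene ID (30072 probes), and the brightest probe stood for a gene, leaving 16171 items, of which 4966 were unnamed probes. A limma fit with 4 group means gave 7 comparisons, adjusted by Benjamini-Hochberg over all items and called under 0.05. Fits were tested on simulated data. Values by array are given for up to 6 members per function group, those called in the most comparisons, and for members called in the interaction or with opposed probes. Of other lists, up to 4 called genes with the largest differences are named. Members and lists were chosen with earlier results of these data known. Alternatives covered background correction, scaling, the authors' processed table, the detection filter, probe choice, arrays fitted, array weights, a replicate block, hybridization as a random block (consensus correlation −0.093) and each array left out. The number of arrays limits the precision. Figures were drawn with matplotlib 3.10.9 in Python 3.11.15.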

Additional observations from a re-analysis of the deposited data

Results flagged for a closer look

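These members passed in the interaction of Cas and ErbB2 (limma adjusted p under 0.05, 12 arrays). Of all items, 5.21% passed as negative and 8.95% as positive. Hybridization and interaction cannot be told apart there. The negative values were MCM10 (−2.04), TYMSOS (−1.85), GINS2 (−1.82), MCM2 (−1.56), TK1 (−1.46), RFC2 (−1.07), UHRF1 (−1.03), PCNA (−0.98), FEN1 (−0.95), MCM5 (−0.93), TYMS (−0.88), POLE2 (−0.83), MCM4 (−0.75), MCM3 (−0.73) and MCM7 (−0.63). The positive ones, GINS3 (0.91) and POLA1 (1.24), were detected on control arrays alone and passed the filter only through them. Calls were lost in 11 (GINS2), 9 (RFC2), 8 (MCM7), 5 (MCM4, POLE2 and GINS3 each), 3 (TK1) and 1 (FEN1) of the left-out arrays.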

How the results depend on the processing

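Counts of called members ran, with 1 array left out, over 7 to 13 for ErbB2 against control, 9 to 15 for Cas against control, 21 to 27 for Cas/ErbB2 against control, 5 to 15 for Cas/ErbB2 against ErbB2, 14 to 21 for Cas/ErbB2 against Cas, 0 to 0 for ErbB2 against Cas and 10 to 19 for the interaction. In that order of comparisons, the replicate number as a block gave 11, 14, 27, 9, 19, 0 and 19. The numbers were not taken to pair the arrays, because deviations of same-numbered arrays correlated above 0.1 in 7 of 18 pairs, not in all (r 0.026 to 0.184 for number 1, −0.088 to 0.036 for number 2 and −0.044 to 0.194 for number 3). As a hint from the data, 8 of 12 arrays correlated best with their own number. Over items detected on all 12 arrays the counts were 3, 5 and 12 against control, 11 for Cas/ErbB2 against Cas and 10 for the interaction, with fewer members tested. At adjusted p under 0.01 they were 5 and 7 for ErbB2 and Cas against control, 5 for Cas/ErbB2 against ErbB2 and 8 for the interaction. With only the groups compared, Cas/ErbB2 gave 1 against ErbB2 and 10 against Cas, with fewer arrays to estimate the spread, and the 9 arrays without control gave 5 against ErbB2. Array weights gave 20 for Cas against control. Median scaling over probes detected on all arrays gave 7 for Cas/ErbB2 against ErbB2, and moved the median of all items against control by 0.22 (ErbB2), 0.21 (Cas) and 0.28 (Cas/ErbB2). It put the share of lower calls among called members at 61.5%, 33.3% and 80% there. By quantile normalization 7 of 11, 6 of 13 and 23 of 26 calls were lower. Median scaling over all probes, added after seeing the data, gave 43 against control for each group, 4 and 5 for Cas/ErbB2 against ErbB2 and Cas, and 30 for the interaction, whose item median it moved by 1.42. The share of lower calls was then 97.7% against control in each group and 3.33% in the interaction. The cause of these shifts beyond the stated ones was not tested. Shares of all items called under each setting are not set beside these counts.

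Of 96 called member results, 2097 of 2455 alternative values kept direction and call, 327 lost the call and 31 reversed. Median scaling over all probes reversed, against control, MCM10 (−0.92), POLE2 (−0.80) and DUT (−1.20) in ErbB2 cells, MCM5 (−1.29), MCM10 (−1.05), POLE2 (−0.98), RFC3 (−0.73), DUT (−1.30) and UHRF1 (−1.40) in Cas cells, and RFC3 (−0.83) and DUT (−1.12) in Cas/ErbB2 cells. In the interaction it reversed MCM2 (0.58), MCM3 (0.83), MCM4 (0.88), MCM5 (0.75), MCM7 (0.99), GINS2 (0.41), PCNA (0.59), POLE2 (0.62), RFC2 (0.89), FEN1 (0.70), TK1 (0.67), TYMS (0.71), TYMSOS (0.29) and UHRF1 (0.60). The mean of kept probes reversed, against control, DUT (−0.17 in ErbB2, −0.16 in Cas, −0.61 in Cas/ErbB2), RFC3 (−0.09 in Cas, −0.26 in Cas/ErbB2) and PCNA (0.04 in Cas/ErbB2). Members near background limit what can be said of CDT1, GINS3, POLA1, POLD3, RRM2 and CHAF1B.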
